A study of Caenorhabditis elegans with 9 samples.

Results

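Germ lines of Caenorhabditis elegans in which the eIF5A gene iff-1 had been silenced by RNAi were compared with germ lines of worms on the empty vector at the same temperature, 15°C. The comparison takes the 3 libraries of iff-1 RNAi at 15°C and the 3 of empty vector (EV) at 15°C, so 6 of the 9 libraries of the study. The other 3, from empty vector worms at 20°C, entered the statistical fit and serve as a second reference. Libraries are called below by their group and number: vector and RNAi replicates at 15°C, and 20°C replicates. Genes with a mean of at least 1 FPKM (mapped fragments scaled to transcript length and library size) over the 9 libraries were described, which left 8572 of 46245 genes, 8062 of them protein-coding.

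All worms were raised on ordinary food until adulthood and then kept for 6 days at their temperature on bacteria with the vector or the iff-1 RNAi. On day 6 they were decapitated and the germ lines that came out were collected. The series title calls the worms wild-type, and the labels used here give no strain name and no number of germ lines per library. They do not say whether replicates came from separate cultures, so the p-values below measure the spread between libraries, which may be technical. In such bulk samples, fewer cells of a type and less of an RNA per cell cannot be told apart.

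The factor eIF5A is a small protein that helps ribosomes past sequences at which they stall and that acts in termination. It works after a lysine has been converted to hypusine, an amino acid derived from the polyamine spermidine. Worms have a pair of eIF5A genes: iff-1 acts in the germ line, where its loss has been linked to a failure of germ cell proliferation, and iff-2 in the body. The adult germ line is ordered from mitotic cells at the far end, kept in division by Notch signalling, through meiosis to growing oocytes. In hermaphrodites sperm are made before adulthood, after which the gonad turns to oocytes.

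The targeted transcript was low in all 3 RNAi libraries. The level of iff-1 was 2677, 2653 and 2510.0 FPKM on vector and 103.9, 58.01 and 37.4 FPKM on RNAi, so the mean of the RNAi libraries was 2.54% of the vector mean. On the log2(FPKM + 1) scale used for every difference below, this was a change of -5.40 (limma SE 0.29, Benjamini-Hochberg adjusted p = 5.47e-05). The groups stood far apart, and an exact two-sided permutation test gave p = 0.1, the smallest that 3 libraries against 3 allow. Another gene, T05G5.17, overlaps iff-1 on the other strand, and how the counting used strand is not given in the sources used here, so values of genes with such a partner are uncertain. Of the genes named below this also holds for fbf-1, nos-2, nos-3, gld-2, tra-2, mog-4, mog-5, mdf-2, mrps-11, rpn-9, sod-2, cey-4, xrn-1, avr-14, CD4.1 and rmd-2.

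The paralogue iff-2 was lower too. Its level was 25.06, 26.5 and 26.6 FPKM on vector and 16.3, 15.1 and 12.8 FPKM on RNAi, without overlap (log2 -0.79, SE 0.09, adjusted p = 0.000837). Fragments that fit both eIF5A genes could have been split between them, so this value is uncertain. Of 9 tested genes for eIF5A, hypusine and polyamines, 1 rose and 2 fell, the falls being iff-1 and iff-2. The rise was that of odc-1, for ornithine decarboxylase, which makes the polyamine putrescine: 5.74, 4.07 and 5.49 FPKM on vector and 10.2, 8.62 and 7.68 FPKM on RNAi (log2 0.69, SE 0.15, adjusted p = 0.0106). This call was lost without vector replicate 3, RNAi replicate 1 and 20°C replicate 2 together (limma adjusted p = 0.0826), where 0 of the 9 rose and 2 fell. The enzymes that make hypusine were not called: the synthase gene dhps-1 differed by -0.10 (adjusted p = 0.183) and the hydroxylase gene dohh-1 by 0.00 (adjusted p = 0.968).

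**Figure D1:**
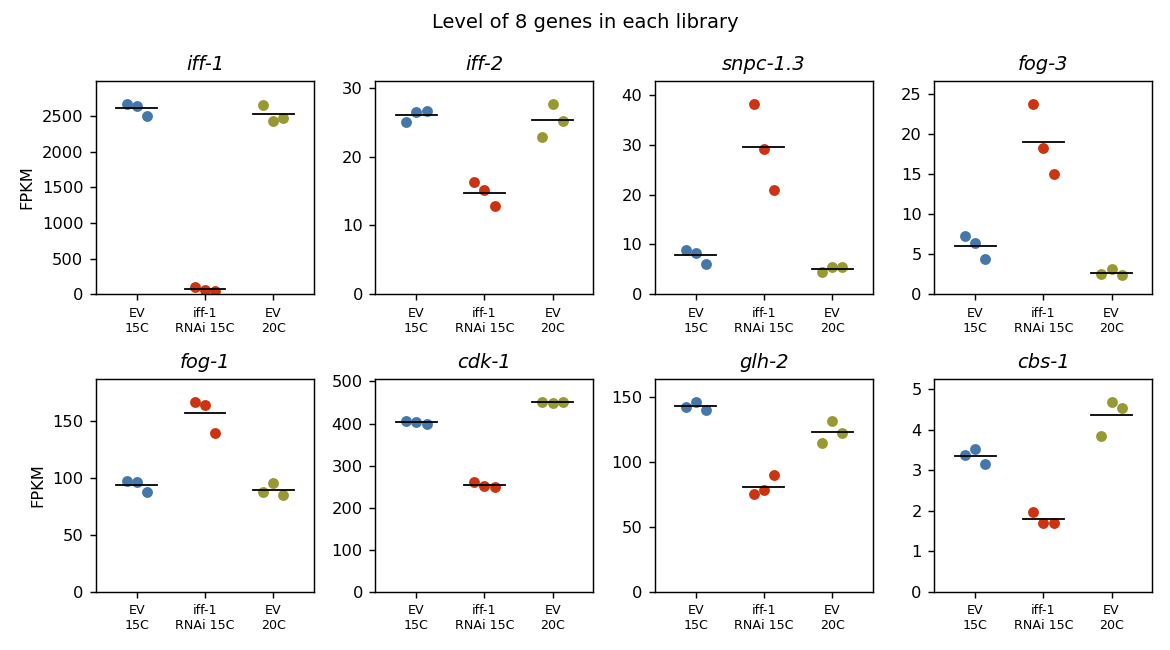
Level in FPKM (vertical axes, each from 0) of 8 genes in each library, by group (horizontal axes); points are the 3 libraries of a group and lines their mean. The iff-1 level is at most 103.9 FPKM in the RNAi libraries and at least 2442 FPKM in the others, while snpc-1.3, fog-3 and fog-1 are higher and cdk-1, glh-2 and cbs-1 lower in every RNAi library than in every vector library at 15°C.

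Many transcripts differed, most of them by little. Of 8572 tested genes, 2659 were called at an adjusted p under 0.05 (31.0%), 1370 of them higher on RNAi (16.0%) and 1289 lower (15.0%). The shares of 16.0% and 15.0% are the background for gene group counts below that use all libraries and the FPKM as deposited. For counts with median ratio scaling the background is 839 rises and 1730 falls of 8572. With quantile normalization it is 1423 and 1381. When single libraries are left out it ranges from 921 to 1574 rises and from 877 to 1502 falls. The median size of a called difference was 0.24 on the log2 scale for the higher and 0.29 for the lower genes. By at least 2-fold, 25 genes rose and 8 fell, of which 12 and 6 are protein-coding. The median over all tested genes was 0.01, and the groups of 3 did not overlap for 4263 genes (49.7%). They did not overlap for 2653 of the 2659 called genes, so a lack of overlap adds little to a call. The split between directions depended on the scaling: 51.5% of calls were higher here, 32.7% with median ratio scaling (839 higher and 1730 lower) and 44.7% when libraries were scaled without the 10 highest genes (988 and 1224).

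**Figure D2:**
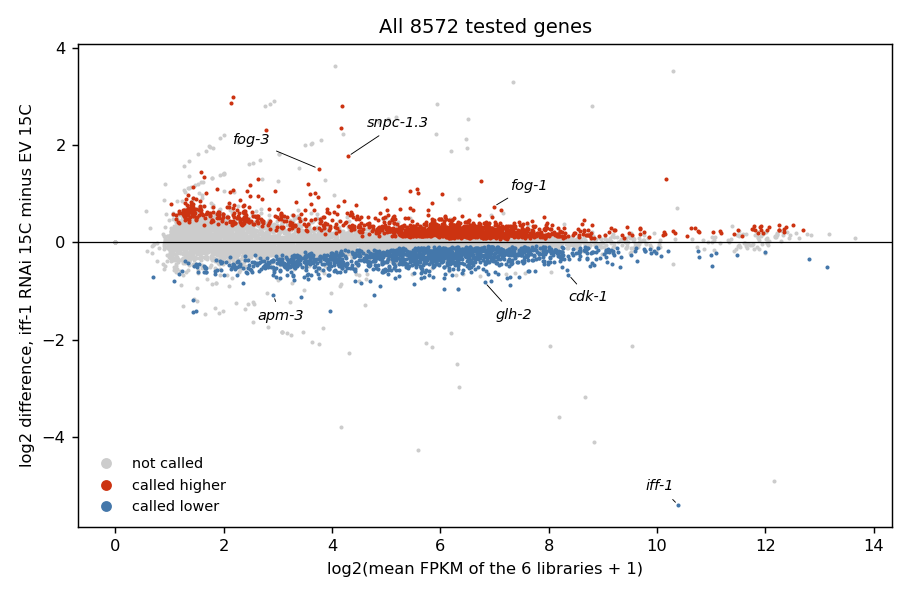
Log2 difference between iff-1 RNAi and empty vector at 15°C (vertical axis) against mean level (horizontal axis) for the 8572 tested genes, 1 point each. Called genes lie mostly within 1 of 0; 90 of the 102 genes beyond 1 that were not called are listed at 0 in at least 1 of the 6 libraries, and iff-1 is at the lower right.

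Values of exactly 0 need care in this table. The Y-box protein gene cey-3 was listed at 0 in vector replicate 3 and at 1345 to 1544 FPKM in the other 8 libraries. The eIF4G gene ifg-1 was listed at 0 in 3 of the 6 compared libraries and lay between 147 and 162 FPKM in the others. The proteasome gene pas-5 was listed at 0 in all libraries except vector replicate 3, where it was at 484.5 FPKM. No difference is drawn from such genes.

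Extruded gonads can carry other tissues along, and 3 libraries stood apart in that respect. vector replicate 3, RNAi replicate 1 and 20°C replicate 2 held more RNA of intestinal genes than the rest of their groups. The 34 intestine markers summed to 265 to 818 FPKM on vector and 342 to 725 FPKM on RNAi at 15°C. None of the 24 that were tested was called (0 of 24), but 23 of them lay above 0 and 1 below (median 0.19). None of the 34 was at 0 in all 6 libraries, and 8 of the 34, including elt-2, elt-7 and ges-1, were under 1 FPKM in all 6. Their part in the results below was not tested, but the counts of the gene groups are also given without these 3 libraries, called the intestine-rich libraries below. Without them 927 genes were called, 416 higher and 511 lower, and 890 of these were called in the same direction with all libraries. The 416 and 511 of 8572 genes are the background for counts without these libraries. That fit has fewer libraries in every group and fewer residual degrees of freedom, and calls can be lost for that alone. Whether a call lost below reflects this or the intestinal RNA was not tested. The median of the tested intestine markers was 0.41 in that fit.

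Muscle markers had the highest sums of the other tissues. The 29 muscle markers summed to 1022 to 1080 FPKM on vector and 1021 to 1047 FPKM on RNAi, none of them at 0, with 5 of 24 tested genes lower. Of the 24, 20 lay below 0 and 4 above (median -0.31). The mean log2 level of the 29 was 3.05 to 3.19 on vector and 2.78 to 2.96 on RNAi, without overlap. What this shift contributes to the results below was not tested. The count of lower muscle genes was 2 without vector replicate 1, vector replicate 3, RNAi replicate 1 or RNAi replicate 2, and 8 without 20°C replicate 1. It was 2 without the intestine-rich libraries and 8 with median ratio scaling or quantile normalization. The 30 neuronal markers summed to 238 to 242 against 250 to 260 FPKM, with tph-1 and unc-47 at 0 and 3 of 9 tested genes higher, which became 1 when any library other than 20°C replicate 1, 20°C replicate 2 or RNAi replicate 3 was left out and 0 without the intestine-rich libraries. The 26 somatic gonad markers summed to 614 to 640 against 634 to 665 FPKM (2 of 12 higher, or 1 without vector replicate 2, vector replicate 3, RNAi replicate 1, RNAi replicate 2 or the intestine-rich libraries; ehn-3 and hlh-12 at 0), and the 34 cuticle and epidermis markers to 178 to 230 against 198 to 274 FPKM (1 of 11 higher, or 0 without the intestine-rich libraries; col-10 and dpy-4 at 0). The 26 early embryo markers summed to 200 to 205 against 193 to 199 FPKM (1 of 7 lower, also without the intestine-rich libraries; med-1, sdz-23 and tbx-35 at 0). Of 21 pharynx markers (13.9 to 15.6 against 12.34 to 13.56 FPKM, 7 at 0) 1 was tested, and of 13 for coelomocytes, uterus and vulva (9.65 to 11.12 against 9.64 to 12.4 FPKM) 2 were, with 0 called. Of the 11 tested cuticle and epidermis markers 10 lay above 0 and 1 below (median 0.15). Germ line genes were abundant throughout, with gld-1 at 800.4 to 971 FPKM and the oocyte gene oma-1 at 323 to 343 FPKM.

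The 2 largest rises of protein-coding genes were in genes of the male germ line program, snpc-1.3 and fog-3. The gene snpc-1.3 encodes a factor for transcription of male piRNAs, small RNAs that silence foreign sequences in the germ line. Its level was 8.95, 8.31 and 6.096 FPKM on vector and 38.2, 29.2 and 20.9 FPKM on RNAi (log2 1.77, SE 0.21, adjusted p = 0.000775), and it overlaps acl-6 on the other strand. The gene fog-3, for a Tob-family protein required for sperm fate, was at 7.26, 6.36 and 4.31 FPKM on vector and 23.7, 18.2 and 14.9 FPKM on RNAi (log2 1.52, SE 0.20, adjusted p = 0.00122). The gene fog-1, for a CPEB-related RNA-binding protein with the same role, was at 97.2, 96.9 and 87.5 FPKM on vector and 167, 164 and 139.8 FPKM on RNAi (log2 0.73, SE 0.08, adjusted p = 0.000517). In all 3 genes every RNAi library lay above every vector library, which for snpc-1.3 and fog-3 the choice of the largest changes required. All 3 were also called without the intestine-rich libraries, at 1.42 for snpc-1.3, 1.17 for fog-3 and 0.64 for fog-1.

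The transcripts of sperm themselves stayed at the edge of detection. Only 4 of 65 sperm genes passed the filter on low values, and 30 were listed at 0 in all 9 libraries. The 28 genes for major sperm proteins, the abundant cytoskeletal proteins of sperm, summed to 0.465, 0.178 and 0.887 FPKM on vector and to 0.0774, 0.308 and 0.805 FPKM on RNAi. These sums overlapped. Of the 4 genes that passed, the channel gene spe-41 rose by 0.64, while spe-44, for a transcription factor of sperm-forming cells, differed by -0.34 and the kinase gene spe-6 by -0.39, both called lower. None of the 4 was called (0 of 4) without vector replicate 2, vector replicate 3, RNAi replicate 1, RNAi replicate 2 or the intestine-rich libraries, and 1 was lower without vector replicate 1.

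Other genes of sex determination moved by less. Of 26 tested genes of the sperm to oocyte decision, 5 rose and 7 fell, with a median of -0.09 beside 0.01 over all genes; with median ratio scaling 13 fell, and without the intestine-rich libraries 3 rose and 3 fell. Besides fog-1 and fog-3, the rises were daz-1 (0.24), for an RNA-binding protein of oogenesis, and fog-2 (0.18) and fem-3 (0.17), which promote sperm in hermaphrodites. The falls included mog-2 (-0.34), mog-4 (-0.36) and mog-5 (-0.37), splicing genes required for the switch from sperm to oocytes. For mog-2 the values were 112.3, 121 and 111 FPKM on vector and 89.4, 87.5 and 94.7 FPKM on RNAi, without overlap. The regulator gene tra-1, which sets somatic and germ line sex (log2 0.06, adjusted p = 0.517), and the receptor gene tra-2 (log2 -0.01, adjusted p = 0.928) were not called. The call of fem-3 was lost without the intestine-rich libraries (adjusted p = 0.0827).

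**Figure D3:**
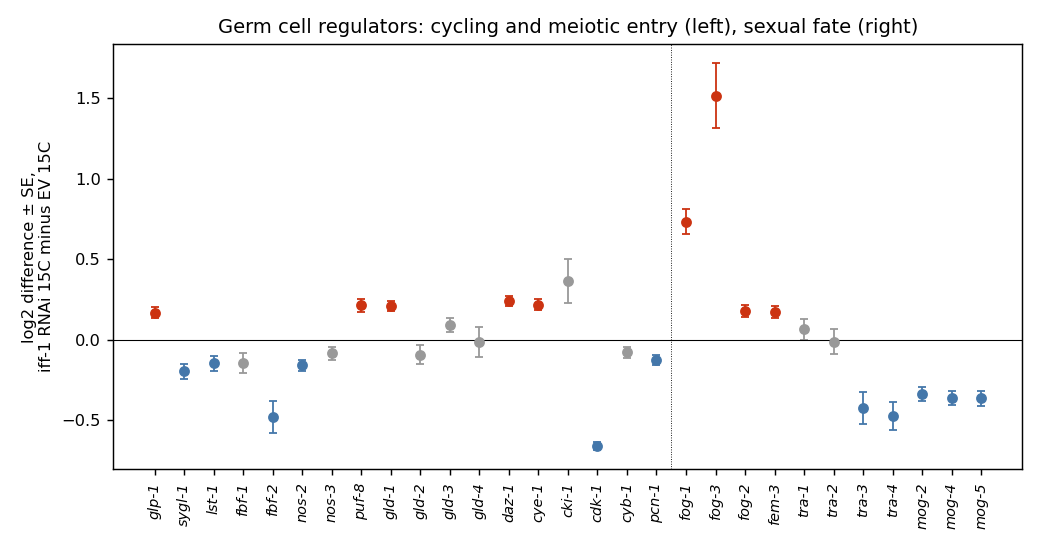
Log2 difference between iff-1 RNAi and empty vector at 15°C, with limma's SE as bars, for regulators of cycling and meiotic entry (left) and of sexual fate (right). Red genes were called higher, blue ones lower and grey ones not called; fog-3 at 1.52 and fog-1 at 0.73 are the highest shown, and cdk-1 at -0.66 the lowest.

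The genes that hold germ cells in the mitotic state gave a mixed picture. The Notch receptor gene glp-1 rose: it was at 93.1, 98.3 and 97.8 FPKM on vector and 109.7, 108 and 108 FPKM on RNAi (log2 0.17, SE 0.03, adjusted p = 0.00702). Its transcriptional targets in stem cells went the other way: sygl-1 was at 268, 251 and 268 FPKM on vector and 215, 234 and 237 FPKM on RNAi (log2 -0.20, SE 0.05, adjusted p = 0.0139), and lst-1 at 127, 121.6 and 132 FPKM on vector and 109.97, 121 and 111.6 FPKM on RNAi (log2 -0.15, SE 0.05, adjusted p = 0.0457). The groups did not overlap in any of these 3 genes, for lst-1 only barely. The call of sygl-1 was lost without vector replicate 1 (adjusted p = 0.0516) or vector replicate 3 (0.0504), and that of lst-1 without vector replicate 1, vector replicate 3, 20°C replicate 3, RNAi replicate 1 or RNAi replicate 3 (0.0704 to 0.147); without the intestine-rich libraries glp-1 was not called either (adjusted p = 0.0663). Of 13 tested genes of the pathway 4 rose and 4 fell. The other rises were aph-1 (0.33), hop-1 (0.25) and pen-2 (0.22), for the secretase that cuts the receptor. All 4 rises have a partner on the other strand. The gene sel-12, for a presenilin of the same secretase, was among the 4 falls. Of the falls, 0 were called without vector replicate 1 or vector replicate 3 and 2 without any single RNAi library, and without the intestine-rich libraries 1 gene rose and 1 fell.

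The repressors downstream of Notch also moved in both directions. The PUF gene fbf-2, needed with its close copy fbf-1 to keep stem cells, was at 14.2, 14.1 and 13.6 FPKM on vector and 8.69, 9.54 and 10.997 FPKM on RNAi (log2 -0.48, SE 0.10, adjusted p = 0.00759). Reads that fit both genes make their values uncertain, and fbf-1 was not called (-0.14, adjusted p = 0.101). The meiotic entry gene gld-1 was at 808, 800.4 and 805 FPKM on vector and 914, 971 and 905 FPKM on RNAi (log2 0.21, SE 0.03, adjusted p = 0.00209). The groups overlapped for neither fbf-2 nor gld-1. The PUF gene puf-8 rose by 0.21 and the Nanos gene nos-2 differed by -0.16 (adjusted p = 0.00873), while nos-3 (-0.09), gld-2 (-0.10), gld-3 (0.09) and gld-4 (-0.01) were not called. Of 23 PUF, Nanos and GLD genes, 6 rose and 4 fell, and 4 rose and 1 fell without the intestine-rich libraries, where fbf-2 (adjusted p = 0.0543) and nos-2 (0.0736) were not called.

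The smallest adjusted p of all tested genes belonged to cdk-1, for the kinase that drives entry into M phase. Its level was 405, 405 and 399.7 FPKM on vector and 261, 252 and 249.7 FPKM on RNAi, so 36.9% below the vector mean (log2 -0.66, SE 0.02, adjusted p = 9.28e-06). The spread within each group was small beside the gap. Its partner cyb-1, a B-type cyclin gene, was not called (-0.08, adjusted p = 0.0922). The G1 cyclin gene cye-1 rose by 0.22 (adjusted p = 0.00216) and cdk-7, for the kinase that activates other CDKs, by 0.32 (adjusted p = 0.00215). The inhibitor gene cki-1 was at 3.50, 3.69 and 3.45 FPKM on vector and 3.73, 5.34 and 5.66 FPKM on RNAi, which did not pass (log2 0.36, SE 0.14, adjusted p = 0.0738). Of 37 cyclins, CDKs and mitotic kinases 8 rose and 5 fell, where 16.0% and 15.0% of all tested genes did. The 8 were 5 without vector replicate 3 or RNAi replicate 2, and the 5 were 2 without vector replicate 2 and 3 without vector replicate 3, 20°C replicate 3, RNAi replicate 1 or RNAi replicate 2. With median ratio scaling 4 rose and 8 fell, where 839 and 1730 of all 8572 genes did. Without the intestine-rich libraries 4 rose and 1 fell, where 416 and 511 of all 8572 genes did.

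Replication and spindle genes were called in both directions. Of 52 replication genes, 10 rose and 15 fell (median -0.04), where 16.0% of all tested genes rose and 15.0% fell. The ribonucleotide reductase gene rnr-1, which supplies DNA precursors, was at 319.8, 320.02 and 332 FPKM on vector and 269, 265 and 262 FPKM on RNAi (log2 -0.29, SE 0.04, adjusted p = 0.00108). The clamp loader gene rfc-2 differed by -0.37 and the sliding clamp gene pcn-1 by -0.13, the latter not called without vector replicate 1 or RNAi replicate 1. Of the 7 tested replication genes with an mcm name, a subset taken after the values were seen, 4 fell and 0 rose. Among the rises were rfc-4 (0.17) and the polymerase subunit gene pole-2 (0.21). The 15 falls were 9 without vector replicate 1 or RNAi replicate 2 and 8 without vector replicate 3, and the 10 rises 6 without vector replicate 1, vector replicate 3 or RNAi replicate 1, 5 without vector replicate 2 and 2 with median ratio scaling. Without the intestine-rich libraries 2 rose and 4 fell, where 416 and 511 of all 8572 genes did.

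Of 75 kinetochore, spindle, centrosome and anaphase-promoting complex (APC) genes, 7 rose and 19 fell (median -0.04). The APC genes mat-3 (-0.39) and mat-2 (-0.37) and the spindle checkpoint genes rod-1 (-0.54) and mdf-2 (-0.23) were among the falls. For rod-1 the values were 57.1, 58.8 and 60.2 FPKM on vector and 37.98, 38.5 and 43.98 FPKM on RNAi, without overlap. The 19 falls were 12 without vector replicate 2, vector replicate 3 or RNAi replicate 2, and the 7 rises 3 without vector replicate 1, vector replicate 2 or RNAi replicate 2 and 4 without RNAi replicate 3. With median ratio scaling 29 fell and 1 rose, where 1730 and 839 of all 8572 genes did. Without the intestine-rich libraries 5 fell and 2 rose, where 511 and 416 of all 8572 genes did.

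Few genes of the synaptonemal complex and chromosome axis were called. Of 15 tested genes for homologue pairing and the meiotic checkpoint 4 rose and 5 fell, or 1 and 2 without the intestine-rich libraries. Of 19 genes for the synaptonemal complex and chromosome axis, which hold homologues together, 1 rose and 0 fell (median 0.02). It was the meiotic cohesin gene rec-8, at 71.2, 72.0 and 72.8 FPKM on vector and 79.1, 78.98 and 83.6 FPKM on RNAi (log2 0.16, SE 0.03, adjusted p = 0.00767), which was not called without the intestine-rich libraries (adjusted p = 0.0665). Without vector replicate 2, 20°C replicate 2 or RNAi replicate 2 the count of rises was 2, and 3 without 20°C replicate 1, and 1 of the 19 fell without RNAi replicate 3. The axis gene htp-3 (0.08, adjusted p = 0.0665) and the central region gene syp-1 (0.02, adjusted p = 0.827) were not called. Of 28 eggshell and egg activation genes, 2 rose and 5 fell, where 16.0% and 15.0% of all tested genes did. One of the falls was chs-1, for the chitin synthase of the eggshell, at 145, 145 and 155 FPKM on vector and 103, 110.1 and 116 FPKM on RNAi (log2 -0.43, SE 0.05, adjusted p = 0.000748). Those 5 were 3 without vector replicate 2, vector replicate 3, RNAi replicate 1 or the intestine-rich libraries, 9 without 20°C replicate 1 and 12, beside 1 rise, with median ratio scaling; the 2 rises were 1 when any library other than 20°C replicate 1 and RNAi replicate 3 was left out and 0 without the intestine-rich libraries. The yolk receptor gene rme-2 differed by -0.17 (adjusted p = 0.00915), a call lost without the intestine-rich libraries (adjusted p = 0.105).

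Falls were frequent in several groups of genes for protein synthesis and folding, though not in all, beginning with the mitochondrial ribosome. Of 65 tested mitochondrial ribosomal protein genes, 42 fell and 2 rose, with a median of -0.27 beside 0.01 over all genes. The subunit gene mrpl-22 was at 58.7, 58.9 and 54.7 FPKM on vector and 26.96, 32.1 and 35.4 FPKM on RNAi (log2 -0.86, SE 0.09, adjusted p = 0.000579), the lowest difference of the 65. The subunit gene mrps-22 was at 61.1, 62.5 and 61.1 FPKM on vector and 34.1, 36.4 and 39.0 FPKM on RNAi (log2 -0.74, SE 0.05, adjusted p = 8.78e-05). The RNAi libraries lay well below the vector libraries for both. The 2 rises, mrpl-50 (0.18) and mrps-11 (0.13), were small, and 1 of them was called without vector replicate 1, vector replicate 3 or RNAi replicate 1. The falls numbered 28, with 0 rises, without the intestine-rich libraries and 43 to 45 with the other scalings.

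Falls also outnumbered rises among initiation factors and the enzymes that load tRNAs. Of 34 initiation factor genes 18 fell and 2 rose (median -0.20), and 11 of the 12 tested genes for eIF3, the large scaffold of initiation, fell, a subset taken after the values were seen. The subunit gene eif-3.H was at 145, 143.9 and 139.3 FPKM on vector and 86.0, 89.3 and 97.7 FPKM on RNAi (log2 -0.64, SE 0.05, adjusted p = 0.000154), with cps-6 on the other strand. The subunit gene eif-3.C, with no such partner, was at 158, 158 and 154 FPKM on vector and 108, 112.3 and 120.4 FPKM on RNAi (log2 -0.46, SE 0.04, adjusted p = 0.000327). In both the groups lay apart. The rises were the cap-binding gene ife-5 (0.50) and eif-1.A (0.21). Of 31 aminoacyl-tRNA synthetase genes 16 fell and 2 rose (median -0.15): the mitochondrial seryl enzyme gene sars-2 was at 72.5, 71.6 and 68.3 FPKM on vector and 40.2, 41.8 and 47.2 FPKM on RNAi (log2 -0.71, SE 0.07, adjusted p = 0.000327), while nars-2 rose by 0.49 and has a partner on the other strand. Without the intestine-rich libraries 13 initiation factor genes fell and 0 rose, as 13 synthetase genes fell and 1 rose. Of 18 tested elongation and termination factor genes, in contrast, 6 rose and 5 fell (median -0.04). The 6 rises were 3 without vector replicate 2 or RNAi replicate 3, 2 without vector replicate 3 and 1 without RNAi replicate 1. With median ratio scaling 1 rose and 7 fell, and without the intestine-rich libraries 0 rose and 4 fell.

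**Figure D4:**
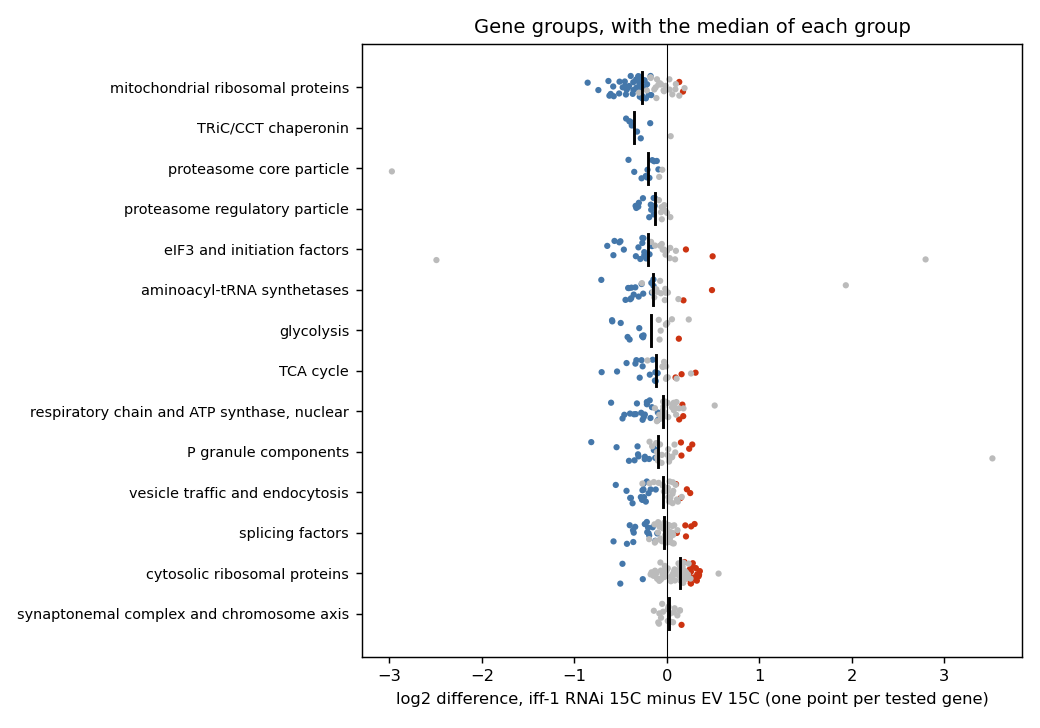
Log2 difference between iff-1 RNAi and empty vector at 15°C (horizontal axis) for the tested genes of several groups, 1 point per gene, with each group's median as a black line. Red genes were called higher, blue lower and grey not called; mitochondrial ribosomal proteins (42 of 65 lower) and the chaperonin (7 of 8 lower) lie to the left, cytosolic ribosomal proteins to the right, and grey points beyond 1 are genes listed at 0 in some library.

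The cytosolic ribosomal proteins did not share the falls of the mitochondrial ones. Of 79 tested genes 19 rose and 3 fell (median 0.15). The small subunit gene rps-28 was at 5284, 5221 and 4825 FPKM on vector and 6802, 6416 and 6307 FPKM on RNAi (log2 0.35, SE 0.07, adjusted p = 0.00847), and the stalk gene rla-0 rose by 0.32. The falls were rpl-41.2, at 10619, 10748 and 10278 FPKM on vector and 7094, 7537 and 7710.3 FPKM on RNAi (log2 -0.50, SE 0.08, adjusted p = 0.00198), its close copy rpl-41.1 (-0.48) and rpl-16 (-0.26). The number of rises changed with the libraries fitted. It was 2 without vector replicate 1, vector replicate 3 or RNAi replicate 1, 3 without RNAi replicate 2 and 8 without vector replicate 2. Without 20°C replicate 1 it was 42 (where 7 fell), and without the intestine-rich libraries 0 (where 2 fell). The median without the intestine-rich libraries was 0.11. With median ratio scaling 2 rose and 3 fell, and with quantile normalization 22 rose and 18 fell; the median was above 0 with each scaling.

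Among genes for the chaperonin and the proteasome falls were called and no rises. Of the 8 genes for the chaperonin TRiC/CCT, which folds actin and tubulin, 7 fell (median -0.35). The subunit gene cct-6 was at 332, 330.4 and 338 FPKM on vector and 251, 254 and 256 FPKM on RNAi (log2 -0.39, SE 0.02, adjusted p = 5.47e-05). The exception, cct-5, was at 556, 539 and 536 FPKM on vector and 582, 555 and 543 FPKM on RNAi, which overlapped (log2 0.04, SE 0.03, adjusted p = 0.383). Of 14 proteasome core genes 11 fell and 0 rose (median -0.20), as did 12 of 21 for the regulatory particle (median -0.13). The core gene pas-2 was at 429, 421 and 417 FPKM on vector and 326, 332 and 334 FPKM on RNAi (log2 -0.35, SE 0.02, adjusted p = 0.000102), and pbs-5, also of the core, differed by -0.41. In the regulatory particle the ATPase gene rpt-3 differed by -0.31 and the lid gene rpn-9 by -0.34. Without the intestine-rich libraries 6 chaperonin, 9 core and 9 regulatory particle genes fell, and no single library moved these counts of falls by over 1.5 times. Of 7 genes for prefoldin, which hands proteins to the chaperonin, 1 rose and 1 fell, or 0 and 1 without the intestine-rich libraries; the rise was not called without any single vector library, 20°C replicate 3, RNAi replicate 1 or RNAi replicate 2, and 2 fell without 20°C replicate 1 or 20°C replicate 2.

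Heat shock genes of the cytosol gave 7 falls and 1 rise among 31. The gene sti-1, for the co-chaperone that links HSP70 to HSP90, was at 213, 216 and 220.4 FPKM on vector and 122.2, 130.1 and 142.4 FPKM on RNAi (log2 -0.72, SE 0.06, adjusted p = 0.00022), and the constitutive HSP70 gene hsp-1 differed by -0.48. The groups of sti-1 lay far apart. The p23 co-chaperone gene daf-41, related to prostaglandin synthases, differed by -0.14 and pges-2, for another relative of these enzymes, by -0.17; neither was called without vector replicate 1, vector replicate 2, RNAi replicate 1 or RNAi replicate 2. In the endoplasmic reticulum the BiP gene hsp-4, an indicator of the unfolded protein response, was at 256, 268 and 250.5 FPKM on vector and 320.4, 325 and 308 FPKM on RNAi (log2 0.30, SE 0.05, adjusted p = 0.00309), while the disulfide isomerase gene pdi-6 differed by -0.50. Of 35 genes of that compartment 7 rose and 10 fell. The falls were 5 without vector replicate 1 or RNAi replicate 1, 6 without vector replicate 2, vector replicate 3 or RNAi replicate 2, and 3 without the intestine-rich libraries, where 5 rose. Cytosolic heat shock genes then gave 5 falls and 0 rises.

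Mitochondrial chaperone genes moved in both directions. The mitochondrial HSP70 gene hsp-6 was at 660.2, 620.2 and 585 FPKM on vector and 793, 744 and 776 FPKM on RNAi (log2 0.31, SE 0.05, adjusted p = 0.00339), and the chaperonin gene hsp-60 rose by 0.19; without the intestine-rich libraries hsp-6 was not called (adjusted p = 0.0674). The protease genes spg-7 (-0.56) and lonp-1 (-0.33) fell, so that of 14 mitochondrial chaperone and protease genes 3 rose and 4 fell (8 fell with median ratio scaling; 0 rose and 3 fell without the intestine-rich libraries). The gene atad-3, for an ATPase of the inner membrane, was at 105, 105 and 104.02 FPKM on vector and 48.0, 53.4 and 58.2 FPKM on RNAi (log2 -0.97, SE 0.06, adjusted p = 8.78e-05), with the groups far apart. Of 47 nuclear genes for the respiratory chain and ATP synthase 18 fell and 3 rose (median -0.04). The complex I gene nduf-2.2 was at 160.1, 151.6 and 149 FPKM on vector and 94.3, 100.4 and 108 FPKM on RNAi (log2 -0.60, SE 0.06, adjusted p = 0.000327). The 3 rises were 1 without RNAi replicate 2 and 6 without 20°C replicate 1, and without the intestine-rich libraries 12 fell and 0 rose.

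In central carbon metabolism falls outnumbered rises. Of 27 genes of the TCA cycle and its entry 14 fell and 3 rose (median -0.12). The gene dld-1, for the dehydrogenase subunit shared by several mitochondrial complexes, was at 195, 193 and 189 FPKM on vector and 111, 117 and 124.5 FPKM on RNAi (log2 -0.70, SE 0.04, adjusted p = 8.78e-05). The 14 were 8 without vector replicate 1 or RNAi replicate 2 and 9 without RNAi replicate 1, the 3 were 1 without vector replicate 2, RNAi replicate 1 or RNAi replicate 2, and without the intestine-rich libraries 5 fell and 2 rose. Of 18 glycolysis genes 9 fell and 1 rose (median -0.17). The aldolase gene aldo-2 was at 761, 741 and 748 FPKM on vector and 504, 524 and 565 FPKM on RNAi (log2 -0.50, SE 0.04, adjusted p = 0.00022), with a partner on the other strand, and the GAPDH gene gpd-4, one of several close copies, differed by -0.59. The rise, hxk-2 (0.13), was not called without vector replicate 2, vector replicate 3 or RNAi replicate 1, and without the intestine-rich libraries 9 glycolysis genes fell and 0 rose.

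Of 27 oxidative stress genes 8 fell, 2 rose and 17 were not called; the falls and rises were 4 and 2 without the intestine-rich libraries. The glutathione reductase gene gsr-1 was at 156, 155 and 154 FPKM on vector and 84.2, 86.7 and 94.6 FPKM on RNAi (log2 -0.80, SE 0.04, adjusted p = 5.47e-05), with a partner on the other strand, and sod-2, for mitochondrial superoxide dismutase, differed by -0.37. In the transsulfuration pathway, where 2 of 21 genes rose and 4 fell (4 rose without 20°C replicate 1; 2 and 2 without the intestine-rich libraries), cbs-1 encodes cystathionine beta-synthase, which can make hydrogen sulfide. Its level was 3.38, 3.53 and 3.15 FPKM on vector and 1.97, 1.69 and 1.70 FPKM on RNAi (log2 -0.64, SE 0.11, adjusted p = 0.00321). The groups of cbs-1 did not overlap, at a low level.

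Among germ granule genes falls outnumbered rises. P granules are bodies of RNA and protein at the nuclear pores of germ cells, and of 36 genes for their components 13 fell and 4 rose (median -0.10), or 7 and 1 without the intestine-rich libraries. The Vasa-related helicase gene glh-2 was at 141.7, 146 and 140.1 FPKM on vector and 74.8, 77.9 and 89.6 FPKM on RNAi (log2 -0.82, SE 0.07, adjusted p = 0.000257), and its relative glh-1 differed by -0.41. The translational repressor gene ifet-1 differed by -0.32, meg-4, for a disordered granule protein, by -0.54 and the scaffold gene pgl-3 by -0.31, all called lower. The related scaffold gene pgl-1 was at 373, 387 and 372 FPKM on vector and 338, 338 and 377 FPKM on RNAi, which overlapped (log2 -0.11, SE 0.04, adjusted p = 0.0886). Among the rises were the decapping activator gene patr-1 (0.28) and the Y-box gene cey-4 (0.24).

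Small RNA genes were called in both directions. Of 40 genes for RNAi amplification 8 rose and 8 fell, beside 16.0% and 15.0% of all tested genes, or 4 and 5 without the intestine-rich libraries. The gene rde-4, for a binder of double-stranded RNA, was at 189, 199 and 176 FPKM on vector and 243, 234 and 237 FPKM on RNAi (log2 0.34, SE 0.06, adjusted p = 0.00285), while the exonuclease gene xrn-1 differed by -0.48. Of 15 Argonaute genes 3 rose and 4 fell; the 4 were 2 without any single vector library or without RNAi replicate 2, and 1 rose and 1 fell without the intestine-rich libraries. The Argonaute gene hrde-1, which carries silencing between generations, rose by 0.24 (adjusted p = 0.00341). The call of csr-1, whose Argonaute protects germ line transcripts (-0.08, adjusted p = 0.0332), was lost without any single vector library or without RNAi replicate 1 or RNAi replicate 2.

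Among genes for transport vesicles, splicing and the cytoskeleton falls outnumbered rises. Of 44 traffic genes 17 fell and 4 rose, and 5 of the 7 tested genes for the COPI coat, which returns vesicles from the Golgi, fell, a subset taken after the values were seen. The coat gene copa-1 was at 118, 116 and 118 FPKM on vector and 80.2, 80.2 and 78.8 FPKM on RNAi (log2 -0.55, SE 0.05, adjusted p = 0.000327). The 4 rises, with the recycling gene rme-1 (0.22) among them, were 2 without vector replicate 2, vector replicate 3, 20°C replicate 3, RNAi replicate 1 or RNAi replicate 2. Of 59 splicing factor genes 16 fell, among them hrpr-1 (-0.43) and snr-5 (-0.34), and 5 rose, which were 3 without vector replicate 2 or RNAi replicate 1 and 2 without vector replicate 3. Of 20 tubulin and actin genes 7 fell and 1 rose. The alpha-tubulin gene tba-1 was at 882, 869 and 926 FPKM on vector and 639.6, 702 and 724 FPKM on RNAi (log2 -0.38, SE 0.05, adjusted p = 0.000997), and act-2 differed by -0.29. The rise, tbb-6 (0.40), was not called without vector replicate 1, vector replicate 2 or RNAi replicate 1, and without RNAi replicate 3 there were 2. Without the intestine-rich libraries 8 traffic genes fell and 2 rose, 7 splicing genes fell and 1 rose, and 3 tubulin and actin genes fell and 0 rose.

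Scaling also moved small counts. With median ratio scaling 0 synaptonemal complex and axis genes rose and 2 fell, 0 respiratory chain, mitochondrial ribosomal, glycolysis and cytosolic heat shock genes rose, 3 splicing genes rose, and 2 P granule and 2 traffic genes rose. Scaling without the 10 highest genes left 2 rises in the Notch pathway, 3 in sex determination, 5 in replication, 3 among spindle genes, 3 among splicing factors, 1 in the TCA cycle, 1 among oxidative stress genes and 0 among glycolysis and heat shock genes, and left 3 falls among cyclins and kinases, 3 among eggshell genes and 2 among Argonautes. With quantile normalization 7 respiratory chain and 3 heat shock genes rose, and 2 synaptonemal complex and axis genes rose and 1 fell.

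Several of the largest changes belonged to none of these groups. The gene ZK177.9 was at 0.760, 0.477 and 0.534 FPKM on vector and 4.199, 3.06 and 2.88 FPKM on RNAi (log2 1.45), and lin-48, for an Ovo-type transcription factor, at 4.43, 3.43 and 4.14 FPKM on vector and 10.1, 9.12 and 8.86 FPKM on RNAi (log2 1.06); both have a partner on the other strand. The chloride channel gene avr-14 rose by 1.07, the dynein light chain gene dlc-2 by 1.04, W05B10.4 by 1.29 and CD4.1 by 1.34. The groups did not overlap in any of these 6 genes, but the largest changes were picked among genes without overlap. On the other side dhs-12, for a short-chain dehydrogenase, was at 87.5, 87.4 and 86.1 FPKM on vector and 43.3, 43.8 and 46.1 FPKM on RNAi (log2 -0.95, SE 0.05, adjusted p = 5.47e-05), but its exons overlap those of other genes. The microtubule regulator gene rmd-2 was at 200.1, 204 and 199 FPKM on vector and 98.1, 109 and 119.6 FPKM on RNAi (log2 -0.88, SE 0.06, adjusted p = 0.000102), and har-1, for a small mitochondrial protein, differed by -0.73. The gene apm-3, for a subunit of the AP-3 adaptor that serves lysosome-related organelles, was at 9.85, 9.21 and 8.82 FPKM on vector and 3.81, 3.72 and 3.98 FPKM on RNAi (log2 -1.09, SE 0.08, adjusted p = 0.000108). These falls too left the groups apart, which the choice required of dhs-12, rmd-2 and apm-3.

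Genes on the X chromosome, which is largely silent in mitotic and early meiotic germ cells and is expressed in oocytes, were more often lower. This held with all libraries and the filter on low values. This tally was made after the values were seen. Of 915 tested X genes 22 rose (2.40%) and 204 fell (22.3%), with a median of -0.16, while of 7600 autosomal genes 1338 rose (17.6%) and 1078 fell (14.2%), with a median of 0.03. The X held 10.7% of the tested genes, 15.8% of those called lower and 1.61% of those called higher. On each of the 5 autosomes more genes rose than fell, from 242 against 231 on chromosome II to 343 against 247 on chromosome I. The balance on the autosomes turned with median ratio scaling (1438 fell and 816 rose), with scaling without the 10 highest genes (1043 and 965), without RNAi replicate 3 (1197 and 1151) and without the intestine-rich libraries (450 and 404). In these 4 settings more X genes fell than rose, with 283 against 17, 172 against 16, 192 against 20 and 60 against 10. Without the intestine-rich libraries, however, 6.56% of X genes fell beside 5.92% of autosomal genes, and 1.09% rose beside 5.32%. With no filter on low values 6.07% of X genes fell beside 5.73%, and 1.25% rose beside 8.76%. The shares of falls thus lay close in both settings, and the shares of rises did not. The genes apm-3, cbs-1, meg-4 and pdi-6 described above lie on the X.

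Library by library, the mean log2 level of X genes minus that of autosomal genes was -1.81, -1.84 and -1.77 on vector and -1.96, -2.03 and -1.97 on RNAi. The groups did not overlap; the difference of -0.18 had an exact two-sided permutation p of 0.1, the smallest possible with 3 libraries against 3. The share of all FPKM on the X was 2.29%, 2.17% and 2.24% on vector and 1.90%, 1.76% and 2.04% on RNAi (p = 0.1 by the same exact test). By level on vector, 16 of 531 X genes under 10 FPKM rose and 64 fell, 6 of 357 from 10 to 100 FPKM rose and 130 fell, and 0 of 27 over 100 FPKM rose and 10 fell. Of autosomal genes in these ranges 10.5%, 19.6% and 21.8% rose and 3.23%, 17.1% and 21.2% fell. The 204 falls on the X were 118 without vector replicate 1, 133 without vector replicate 2, 134 without vector replicate 3, 133 without RNAi replicate 1 and 123 without RNAi replicate 2. The 22 rises were 10 without vector replicate 2, 12 without RNAi replicate 1 and 13 without RNAi replicate 2. Without the intestine-rich libraries 60 X genes fell and 10 rose, with a median of -0.16.

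**Figure D5:**
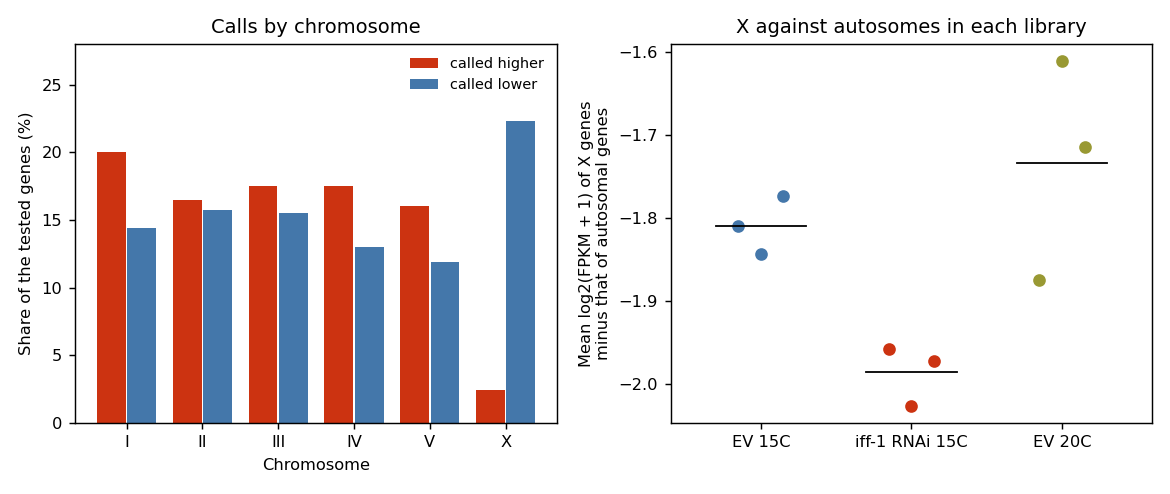
Left, share of the tested genes of each chromosome called higher (red) or lower (blue) on iff-1 RNAi against empty vector at 15°C, in percent; X has 2.40% higher and 22.3% lower. Right, mean log2(FPKM + 1) of X genes minus that of autosomal genes in each library, with group means as lines; the RNAi libraries lie between -2.03 and -1.96, below all vector libraries.

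Against empty vector germ lines at 20°C the RNAi libraries differed in more genes, but there the temperature differs too. In that comparison 4193 genes were called (48.9%), 1759 higher (20.5%) and 2434 lower (28.4%). Both comparisons share the RNAi libraries. Of the 1370 genes higher than in EV 15C, 817 were also higher than in EV 20C and 39 were lower, and of the 1289 lower genes 1060 were also lower and 9 were higher. For cdk-1 the difference was -0.82 against EV 20C beside -0.66 against EV 15C, its level at 20°C being 452, 449 and 451 FPKM. For fog-3 it was 2.42 beside 1.52 and for snpc-1.3 2.28 beside 1.77. The Notch target sygl-1 differed by -0.59 beside -0.20, lst-1 by -0.56 beside -0.15 and nos-2 by -0.81 beside -0.16. The helicase gene glh-1 differed by -0.05 from EV 20C, which was not called, and by -0.41 from EV 15C, while cct-5 was higher than in EV 20C by 0.51 beside 0.04. Of the mitochondrial ribosomal protein genes 47 were lower and 3 higher than in EV 20C, and of the X genes 434 were lower (47.4%) and 68 higher.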

How the data were processed

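Poly-A RNA of 9 libraries of extruded germ lines, 3 per group, had been sequenced from both ends on an Illumina instrument, per the labels' protocols. The authors deposited 1 table of FPKM per gene; per the submitters' processing notes CASAVA and Cufflinks were used. No aligner, genome build or strand setting is recorded in these sources. Chromosomes and overlaps came from the WBcel235 annotation. Estimated depth was 34.7 to 40.8 (in units of 1e6 fragments), from steps between low values; 74.3% to 78.0% of low values lay within 0.25 of a whole step (50.0% by chance), too few to recover counts. Counting intervals were therefore not computed. Columns were matched to samples by name.

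FPKM were analysed as log2(FPKM + 1) with limma 3.58.1 in R 4.3.3 (all 9 libraries, 3 groups, variance trend, 6 residual degrees of freedom), after leaving out genes with a mean under 1 FPKM. Adjusted p-values are limma's over all 8572 genes by Benjamini-Hochberg, with a threshold of 0.05. In data simulated for this comparison on 8572 genes, calls recovered 34.4%, 64.8%, 88.8% and 96.8% of genes changed by 0.25, 0.5, 1 and 2 on the log2 scale, with 5.03% false calls. Far fewer genes were changed in the simulation than the 2659 called in the data. The adjustment is stricter when few genes change, so these shares need not hold for the real comparison.

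Genes to name were drawn from iff-1 and iff-2, the 15 largest changes each way, 10 abundant genes each way, up to 6 per list by adjusted p, and a set of germ line genes. The largest changes were taken among called protein-coding genes with all 6 values above 0 and no overlap between the groups. The text leaves out some genes of this rule and some of the lists, the mitochondrial genome among them. The members and the 64 lists (87 entries unmatched) were chosen with earlier results of these data known. The tally of the X chromosome, the subsets of lists and, outside that rule, dohh-1, cey-3, ifg-1, pas-5, fog-2, mrpl-50, mrps-11, ife-5, eif-1.A, nars-2, rpl-16, cct-5, hsp-60, hxk-2, patr-1, cey-4 and tbb-6 were chosen after their values were seen. Same-numbered libraries of the compared groups did not deviate together, so numbers were not taken as pairs. Alternatives were the pseudocount, the filter, scaling, the variance trend, the libraries fitted, a replicate block and leaving out libraries.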

Additional observations from a re-analysis of the deposited data

How the results depend on the processing

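Against EV 15C, leaving out each library in turn gave 1798 to 3076 called genes (921 to 1574 higher, 877 to 1502 lower) and an iff-1 difference of -5.78 to -5.05. Against EV 20C it gave 3389 to 4118 (1371 to 1766 higher, 1993 to 2458 lower). Without EV 15C replicate 3, iff-1 RNAi 15C replicate 1 and EV 20C replicate 2 together, an alternative added after seeing the data, 927 genes were called against EV 15C, 416 higher and 511 lower. Median ratio scaling gave 839 higher; the cause was not tested. A replicate block gave 2425 calls (1253 higher, 1172 lower) and 4051 against EV 20C. Replicate numbers did not pair the libraries: the deviations of same-numbered EV 15C and iff-1 RNAi 15C libraries correlated at -0.074, -0.010 and -0.053. The other alternatives run kept each of these counts within 1.5 times. Smaller changes may be missed. The simulated recovery was 34.4% at 0.25 on the log2 scale, but with far fewer changed genes than were called here, so recovery in these data is not known.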
